A study of Mus musculus with 36 samples.

Results

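Transcripts of the Hsp90 chaperone system were followed in the forebrain of adult mice that slept, woke spontaneously or were kept awake. The genes were chosen by name, but with earlier results of these data known. Setting their calls beside the share of all probe sets is therefore no independent test. For the system 8 genes were listed, and every probe set that the platform annotation assigns to 1 of them alone was taken. That gave 14 of 45037 probe sets and 6 of 18193 genes: Hsp90aa1, Chordc1, Ahsa1, Stip1, Cdc37 and Fkbp4. Ptges3, which encodes the p23 cochaperone, had 2 probe sets that also name its pseudogene and was left out, and 1 further gene matched no probe set and was not analysed here. Of the 14 probe sets, 12 were bright enough to be tested. Ahsa1 and Fkbp4 each had 1 dim probe set that was not.

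All 18 animals were heterozygous Cnp – eGFP-L10a mice on the C57BL/6 strain, so controls and treated animals carried the same transgene. In them the Cnp promoter drives a green fluorescent fusion of the ribosomal protein L10a in oligodendrocytes, and immunoprecipitation of that fusion collects the messenger RNA on oligodendrocyte ribosomes (the bound fraction). RNA left in the supernatant is the unbound fraction, which holds transcripts of neurons and the other cells of the forebrain. There were 6 animals per state and 2 arrays per animal, 36 arrays in all. Sleep animals were killed between 3 and 5 pm in the light phase, after sleeping for at least 75% of the previous 6 to 7 h. Waking animals were killed between 3 and 5 am in the dark phase, after at least 70% of such a window awake. Sleep deprived animals had been awake for most of the dark phase and were then kept awake for 4 h in the light with unfamiliar objects. Waking therefore differs from sleep in clock time as well as in state, and these cannot be told apart. For sleep deprived animals the labels give the light phase but no clock time, so a difference from sleep in clock time was not tested.

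Hsp90 is an abundant ATP-driven chaperone that takes over partly folded proteins, among them steroid receptors and many kinases, and brings them to an active form. Cochaperones steer that cycle. Stip1 (Hop) holds Hsp70 and Hsp90 together while a client is passed on, Cdc37 delivers kinases, Ahsa1 (Aha1) speeds ATP hydrolysis, Fkbp4 (FKBP52) accompanies steroid receptors, and Chordc1 (morgana) binds Hsp90 through its CHORD domains. Hsp90aa1 encodes the inducible cytosolic Hsp90, and it is a classical target of heat shock factors, which bind arrays of the unit GAA in alternating orientation.

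Promoters of these genes were read for such units, as a description without a test. RefSeq windows on GRCm38.p6, running from 250 bases before to 50 bases after the start site, were at hand for Chordc1, Ahsa1, Stip1, Cdc37 and Fkbp4, but none for Hsp90aa1. The search used GAANNTTC or TTCNNGAA for 2 adjoining units and GAANNTTCNNGAA or TTCNNGAANNTTC for 3 units, which contain the shorter motif. Both motifs of each pair were read on 1 strand, and together they cover both strands. A 3-unit match was present in 1 of the 5 windows and in 0.603% of all 32851 windows. A 2-unit match was present in 3 of the 5 and in 15.1% of all. The Ahsa1 and Stip1 windows held neither, which says only that these letters are not in those 300 bases. The Ahsa1 window, chr12:87266478-87266777 on the plus strand, lies inside the annotated gene, which begins at 87266415. Bases before that gene start were not read. The following lines show 60 bases on the coding strand for each of the 3 genes, with the matching units in capitals.
Chordc1: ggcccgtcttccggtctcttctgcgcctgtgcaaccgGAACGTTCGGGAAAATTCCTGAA
Fkbp4: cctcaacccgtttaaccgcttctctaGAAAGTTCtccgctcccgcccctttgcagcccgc
Cdc37: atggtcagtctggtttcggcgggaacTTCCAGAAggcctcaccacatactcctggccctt
The Chordc1 stretch is chr9:18292226-18292285 on the plus strand, with its capitals at positions −4 to 19 relative to the start site. It holds an unbroken run of 5 units. That run length was counted after the sequences had been seen. No other window among the 32851 had a run of 5 (0.00304% with Chordc1 included), and 8 windows (0.0244%) had at least 4. The Fkbp4 stretch is chr6:128438774-128438833 on the minus strand, with its match at −151 to −144. For Cdc37 the stretch is chr9:21150071-21150130, also on the minus strand, with its match at −170 to −163. These matches are descriptions of the sequence and were not tested for binding.

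Signals are log2 values, so a difference of 1 is a doubling. Where a gene had several probe sets the brightest represents it, and signals are compared between arrays for the same probe set, not between genes. Changes are given with their standard error and with p-values of limma adjusted by Benjamini-Hochberg over all 28786 probe sets tested; a change is called when the adjusted p is below 0.05. Animals were numbered as separate biological replicates. The mean signal per array differed by at most 0.0097 (SD) among the 6 arrays of a group. Between groups it lay from 5.91 to 5.92 in the bound and from 6.33 to 6.41 in the unbound fraction, lowest in unbound waking. All 9 oligodendrocyte markers measured were higher in the bound fraction (median difference 2.86), and all 7 neuron, 6 astrocyte, 4 microglia and 2 endothelial markers tested were lower. The neuron markers were still well measured there, with a summed log2 signal of 14.39 to 14.78 across the bound arrays.

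In the bound fraction, spontaneous waking was accompanied by higher levels of 4 of the 6 genes: Chordc1, Fkbp4, Ahsa1 and Hsp90aa1. The rise ran from 1.25-fold for Hsp90aa1 to 1.95-fold for Chordc1. Of all probe sets tested, 5.08% were called higher in this comparison (4.78% of those above the 80th percentile of brightness). No gene of the 6 was called lower, beside 4.83% of all probe sets. The median change of the 6 genes was 0.53, beside −0.01 for all probe sets. For 3 of the 6 every waking array lay above every sleep array, which was so for 3.22% of all probe sets.

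Hsp90aa1, the chaperone itself, had a lowest, median and highest signal of 13.12, 13.25 and 13.40 in sleep and of 13.41, 13.60 and 13.73 in waking. The groups did not overlap, although the gap between them was narrow. The change was 0.32 ± 0.06 (adjusted p = 0.00269, limma, n = 6 per group). Its small size went with a small spread, since the SD within each group was 0.12 or less.

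Chordc1 lay at 9.78, 9.88 and 9.95 in the 6 sleep arrays and at 10.62, 10.82 and 11.06 in the waking arrays. All 6 waking animals stood clear of all 6 sleep animals. Its change of 0.96 ± 0.12 (adjusted p = 7.185e-05) was the highest of the 6 genes.

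Among the cochaperones that act on the ATPase cycle or on receptors, Ahsa1 went from 11.43, 11.52 and 11.60 in sleep to 11.84, 11.98 and 12.08 in waking, with no overlap. Its change was 0.47 ± 0.12 (adjusted p = 0.0181). Fkbp4 had 11.31, 11.55 and 11.90 in sleep and 11.82, 12.22 and 12.38 in waking. The ranges overlapped because sleep animal 2 was high and waking animal 6 low. The change was 0.59 ± 0.12 (adjusted p = 0.00311).

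Stip1 and Cdc37 did not pass. For Stip1 the sleep arrays lay at 10.35, 10.50 and 11.15 and the waking arrays at 10.97, 11.24 and 11.44. Every waking array was above the sleep mean, but sleep animal 2 reached into the waking range. The difference was 0.63 ± 0.21 (adjusted p = 0.0656), and without sleep animal 2 it was 0.74 and called (adjusted p = 0.0344). Cdc37, the kinase adaptor, lay at 10.56, 10.72 and 10.93 in sleep and at 10.65, 10.69 and 10.73 in waking. Its difference was −0.02 ± 0.09, with a 95% interval of −0.21 to 0.18.

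**Figure D1:**
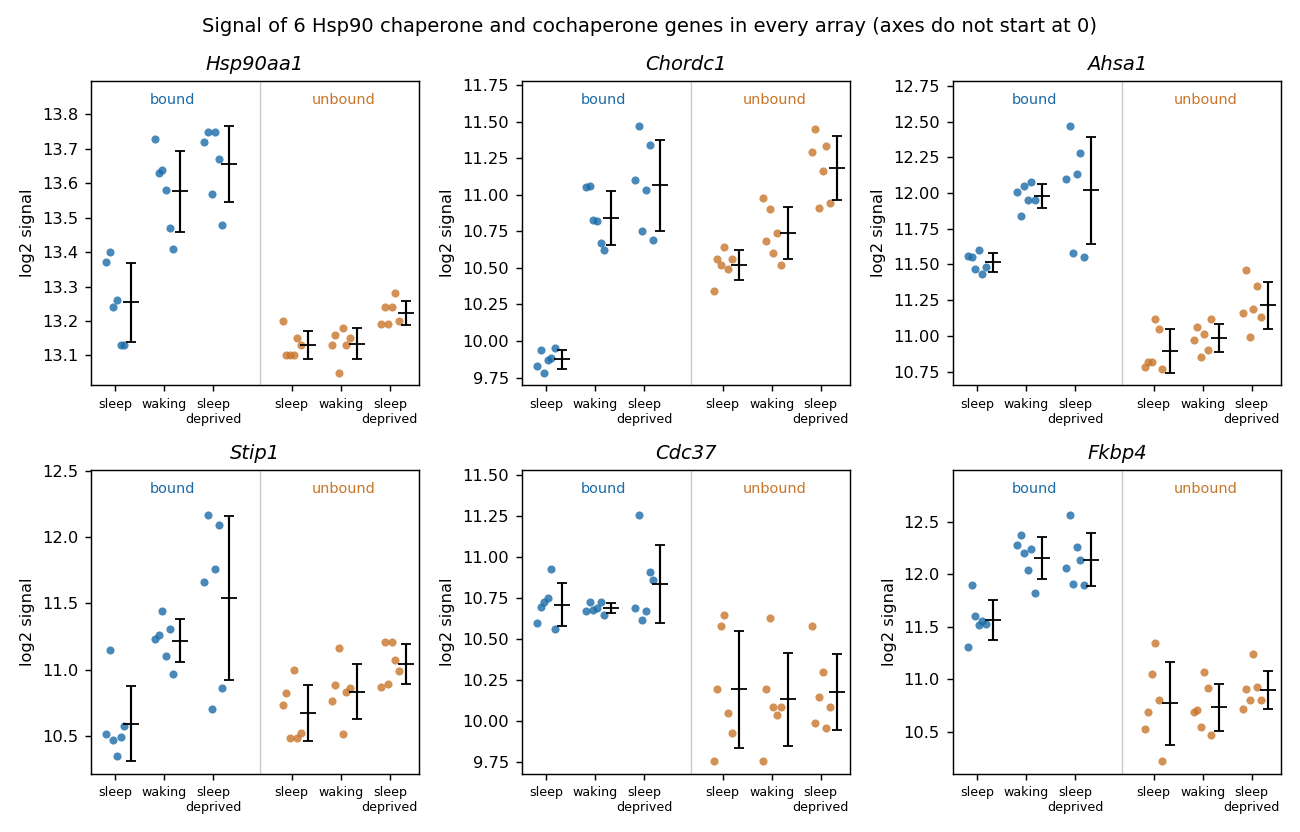
Log2 signal of each gene's brightest probe set in all 36 arrays, by fraction and state. Each point is 1 array, and the black mark and bar give the mean and SD of the 6 arrays; Chordc1 in the bound fraction runs from 9.78 to 9.95 in sleep and from 10.62 upward in both wake groups.

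Sleep deprivation gave the same direction in the bound fraction, with 5 of the 6 genes higher than in sleep (8.05% of all probe sets were called higher, 9.61% of those above the 80th percentile of brightness, and 6.67% lower). The additional gene was Stip1. The median change was 0.54, beside 0.00 for all probe sets, and the groups were separate for 3 of the 6 genes, as for 4.25% of all probe sets. The waking and the sleep deprivation comparisons share the same 6 sleep arrays and so are not independent of each other.

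Chordc1 lay at 10.69, 11.06 and 11.47 in sleep deprived animals, all above the highest sleep value of 9.95. It rose by 1.19 ± 0.12 (2.27-fold, adjusted p = 2.909e-06). Hsp90aa1 had 13.48, 13.69 and 13.75, again with no overlap with sleep, and rose by 0.40 ± 0.06 (adjusted p = 0.000242). Stip1 ranged more widely, with 10.70, 11.72 and 12.17. It rose by 0.95 ± 0.21 (adjusted p = 0.00506), and its SD of 0.62 among sleep deprived animals compares with 0.16 in waking.

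For Fkbp4 the sleep deprived values were 11.90, 12.10 and 12.57. The lowest was above the highest sleep value, though only in the third decimal place, and the change was 0.57 ± 0.12 (adjusted p = 0.00248). Ahsa1 had 11.55, 12.11 and 12.47. Its change was 0.50 ± 0.12 (adjusted p = 0.00827), but the lowest sleep deprived values fell within the sleep range. Cdc37 again did not pass, with 10.62, 10.77 and 11.26 and a difference of 0.12 ± 0.09 (95% interval −0.07 to 0.32, adjusted p = 0.42).

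**Figure D2:**
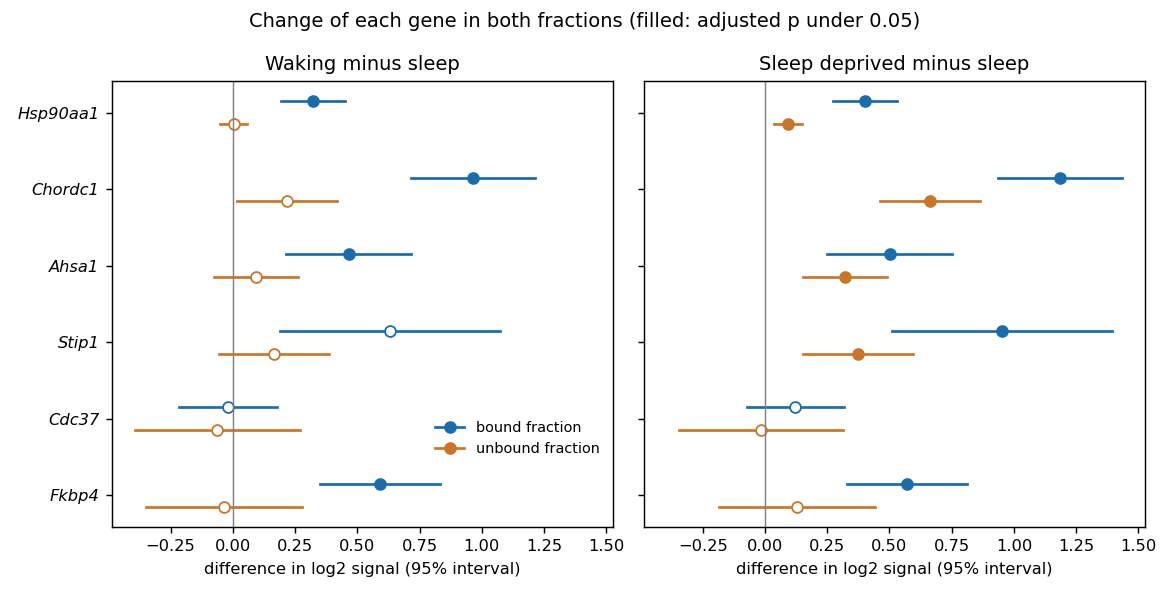
Difference in log2 signal from sleep for waking (left) and sleep deprivation (right), with 95% intervals from limma; filled points had an adjusted p below 0.05. Bound changes (blue) lie to the right of unbound changes (orange) for Chordc1, with 0.96 against 0.22 in waking and 1.19 against 0.66 in sleep deprivation, while Cdc37 stays around 0.

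Direct comparison of the wake groups in the bound fraction called 0 of the 6 genes in limma, where 5.88% of all probe sets were called in either direction. At an unadjusted p below 0.05 the count was also 0 of 6, while 20.3% of all probe sets were below it. Differences between sleep deprivation and waking ran from −0.02 for Fkbp4 to 0.32 ± 0.21 for Stip1. For Chordc1 the difference was 0.22 ± 0.12 with a 95% interval of −0.03 to 0.47, and for Hsp90aa1 it was 0.08, with an interval of −0.05 to 0.21. These intervals do not show that the wake groups were alike. They bound the Hsp90aa1 difference more closely than that of Stip1, whose interval ran from −0.12 to 0.77.

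The sleep deprived animals differed among themselves, and they did so in most of the genes at once. Animal 7 had the highest bound signal of its group for 5 of the 6 genes. Animals 8 and 11 were the low end: animal 8 was among the 2 lowest for all 6 genes, and animal 11 for 5. Chordc1 was at 10.75 and 10.69 in animals 8 and 11 and between 11.03 and 11.47 in the other 4. Stip1 was at 10.70 and 10.86 in the same pair and between 11.66 and 12.17 in the rest. Ahsa1 was at 11.58 and 11.55 in the pair, within the sleep range, and at 12.10 or above in the others.

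Hspa1b, the inducible Hsp70 that hands clients to Hsp90 through Stip1, had the same 2 animals at the low end. Its bound signal was 9.16 in animal 8, 6.32 in animal 11 and 11.14 to 11.92 in the other 4 sleep deprived animals. Summed oligodendrocyte marker signal was 16.36 in each of the pair and 16.23 to 16.37 in the other 4. For neuron markers the sum was 14.57 in animal 8, 14.49 in animal 11 and 14.51 to 14.78 in the other 4. For microglia markers it was 7.34, 6.76 and 6.96 to 8.07. The part of cell content in the low signals was not tested. Animal 11 was also 1 of 3 animals that sex-linked genes set apart from the rest, with waking animals 3 and 5. Leaving out those 3 changed no bound count of called genes among the 6. In the waking group, animal 6 had the lowest bound signal for 5 of the 6 genes, and in the sleep group animal 2 had the highest for 3, with Stip1 at 11.15 and Hspa1b at 8.19. Other sleep animals lay between 5.09 and 7.39 for Hspa1b.

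**Figure D3:**
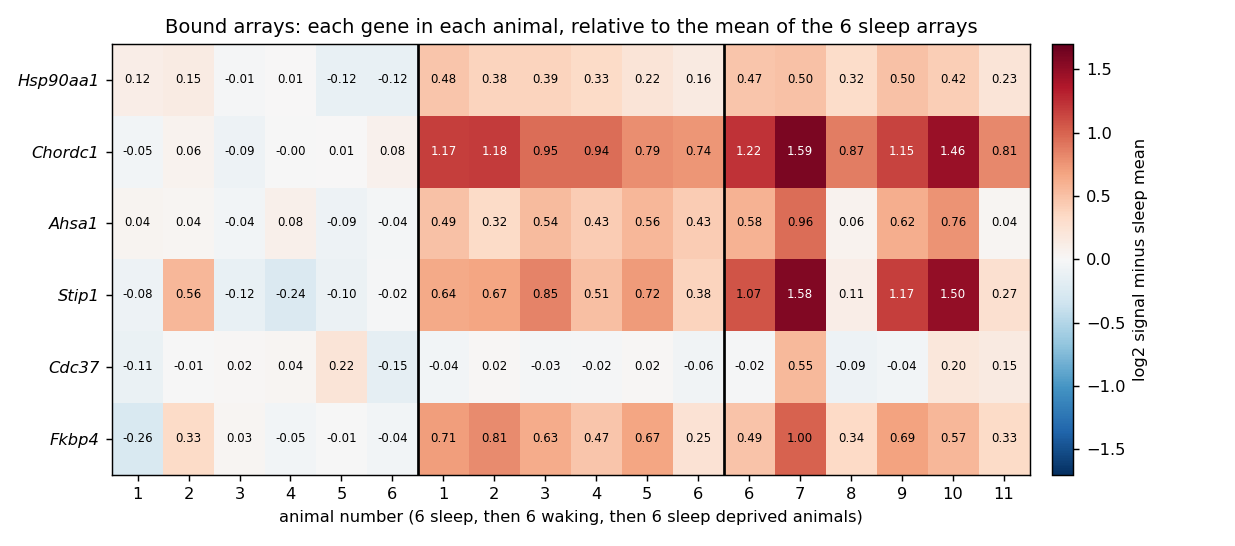
Bound log2 signal of each gene minus its mean over the 6 sleep arrays, 1 column per animal in the order sleep, waking and sleep deprived, with colour and printed number giving the difference. Sleep deprived animals 8 and 11 are paler than their group in Chordc1, Ahsa1 and Stip1, and animal 7 is the darkest.

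In the unbound fraction spontaneous waking left no gene called: 0 of 6 in limma, beside 1.79% of all probe sets called higher and 7.94% in either direction. At an unadjusted p below 0.05 there was 1 of 6, Chordc1, and 24.0% of all probe sets. Chordc1 lay at 10.34, 10.54 and 10.64 in sleep and at 10.52, 10.71 and 10.98 in waking. These ranges overlapped, and the difference was 0.22 ± 0.10 (adjusted p = 0.17). Hsp90aa1 hardly differed on its brightest probe set, with 13.10, 13.12 and 13.20 in sleep against 13.05, 13.14 and 13.18 in waking. The 95% interval of −0.05 to 0.06 excluded a change of the size seen in the bound arrays. Its probe set 1437497_a_at was at 0.11 ± 0.05 (95% interval 0.01 to 0.22), not called (adjusted p = 0.178, limma). For 1438902_a_at the difference was 0.03 ± 0.07. All unbound probe sets together had a median change of −0.09 in this comparison.

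Sleep deprivation raised 4 of the 6 genes in the unbound fraction against sleep, where 4.72% of all probe sets were called higher. Chordc1 stood apart: its sleep deprived signals of 10.91, 11.23 and 11.45 all exceeded the highest sleep signal of 10.64. It rose by 0.66 ± 0.10 (adjusted p = 0.000296). Ahsa1 went from 10.77, 10.82 and 11.12 in sleep to 10.99, 11.18 and 11.46, with overlap, and rose by 0.32 ± 0.08 (adjusted p = 0.0186). The other calls were weaker. Stip1, at 10.48, 10.62 and 10.99 in sleep and 10.87, 11.03 and 11.21 after deprivation, rose by 0.37 ± 0.11 (adjusted p = 0.0355). Hsp90aa1, at 13.19, 13.22 and 13.28 after deprivation, rose by 0.09 ± 0.03 (adjusted p = 0.0342). On these probe sets the sleep and sleep deprived ranges of both genes overlapped. Both of these calls were lost after quantile normalization within each fraction, Stip1 with an adjusted p of 0.0759 and Hsp90aa1 with 0.203. Without that normalization 2 less bright Hsp90aa1 probe sets rose more. The probe set 1437497_a_at rose by 0.25 ± 0.05 with no overlap (adjusted p = 0.00472, limma). For 1438902_a_at the rise was 0.22 ± 0.07 (adjusted p = 0.0423). The dim 1441827_x_at and 1433251_at were not called. Single animals were left out only for the brightest probe sets. The calls of the brightest probe sets were also lost when single animals were left out, Stip1 in 8 and Hsp90aa1 in 7 of 12 cases.

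Against waking, the sleep deprived unbound arrays had 2 of the 6 genes called higher, Chordc1 by 0.45 ± 0.10 (adjusted p = 0.00703) and Hsp90aa1 by 0.09 ± 0.03 (adjusted p = 0.034). Of all probe sets 8.83% were called higher, and the median change over all of them was 0.11. Relative to that median the Hsp90aa1 difference was not positive on its brightest probe set. After quantile normalization within each fraction it was −0.01 and not called, while Chordc1 was at 0.32 (adjusted p = 0.062). As deposited, Hsp90aa1 1437497_a_at and 1438902_a_at were at 0.14 ± 0.05 and 0.19 ± 0.07, not called (adjusted p = 0.0886 and 0.0692, limma). Oligodendrocyte markers moved with this comparison: 3 of 9 were called higher and 0 lower (1 of 9 higher after that normalization). Their summed signal was 14.48 to 14.62 in sleep deprived, 14.26 to 14.39 in waking and 14.35 to 14.52 in sleep unbound arrays. Their part in the result was not tested.

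In the bound arrays the summed oligodendrocyte marker signal was 16.33 to 16.36 in sleep, 16.20 to 16.27 in waking and 16.23 to 16.37 in sleep deprivation, with 1 of 9 called higher and 4 lower in waking and 2 each way in sleep deprivation. Of all probe sets 5.08% were called higher and 4.83% lower in bound waking. In bound sleep deprivation these shares were 8.05% and 6.67%. Of the neuron list 0 of 7 were called in bound waking and 1 of 7, lower, in bound sleep deprivation. Astrocyte markers gave 0 of 6 in both. Microglia gave 0 of 4 and then 1 of 4, lower. Endothelial markers gave 1 of 2 higher in waking and 0 of 2 in sleep deprivation. Where limma called 0, the counts at an unadjusted p below 0.05 were 0 of 7 neuron, 1 of 6 astrocyte and 2 of 4 microglia markers in waking, and 2 of 6 astrocyte and 1 of 2 endothelial markers in sleep deprivation.

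Whether the change was larger in 1 fraction was tested on the difference between the 2 arrays of each animal. From sleep to waking this difference grew for 3 of the 6 genes (4.38% of all probe sets were called higher). For Chordc1 the bound change exceeded the unbound one by 0.75 ± 0.09 (adjusted p = 0.000199), for Hsp90aa1 by 0.32 ± 0.07 (adjusted p = 0.00701) and for Fkbp4 by 0.63 ± 0.17 (adjusted p = 0.0326). The Fkbp4 call was lost in 7 of 12 cases in which 1 animal was left out, with adjusted p-values up to 0.0703. Ahsa1 was just outside the threshold, at 0.37 ± 0.11 (adjusted p = 0.0516). Of the other Hsp90aa1 probe sets, 1437497_a_at (0.33 ± 0.07) and 1441827_x_at (0.69 ± 0.17) were called. The bright 1438902_a_at (0.16 ± 0.13, adjusted p = 0.512) and the dim 1433251_at (−0.09 ± 0.20) were not. Without the intensity trend of the variances Chordc1 stayed called, and Hsp90aa1 (adjusted p = 0.0736) and Fkbp4 (adjusted p = 0.0525) did not. Markers that moved with this contrast were 1 of 9 for oligodendrocytes and 1 of 2 for oligodendrocyte precursors, both higher. The summed precursor signal had means of 7.39 in sleep and 7.51 in waking in the bound fraction and of 8.02 and 7.49 in the unbound fraction. The sleep and waking ranges of that signal overlapped in the bound but not in the unbound fraction. The part of these markers in the result was not tested.

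From sleep to sleep deprivation the difference grew for 2 of the 6 genes (3.23% of all probe sets), Chordc1 by 0.52 ± 0.09 (adjusted p = 0.00205) and Hsp90aa1 by 0.31 ± 0.07 (adjusted p = 0.00804). Without the intensity trend the Hsp90aa1 call was lost here too (adjusted p = 0.0814). Its probe sets 1437497_a_at and 1441827_x_at were again called, and 1438902_a_at (0.13 ± 0.13, adjusted p = 0.584, limma) and 1433251_at again not. The Stip1 value was 0.58 ± 0.20 (adjusted p = 0.0889), and it was called without animal 8 or without animal 11. Between sleep deprivation and waking 0 of 6 were called in limma, beside 5.05% of all probe sets called in either direction and 1.37% higher. At an unadjusted p below 0.05 there was 1 of 6, Chordc1 at −0.23 ± 0.09, and 20.9% of all probe sets.

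Averaged over states, 5 of the 6 genes had a higher signal in the bound than in the unbound array of the same animal, and 1 a lower one. With 83.3% of all probe sets called between the fractions, 23.8% higher and 59.4% lower, a call alone says little here. The sizes differed: the bound signal was higher by 1.16 ± 0.07 for Fkbp4, 0.81 ± 0.05 for Ahsa1, 0.58 ± 0.08 for Cdc37, 0.33 ± 0.03 for Hsp90aa1 and 0.27 ± 0.08 for Stip1, over 18 animals. Fkbp4, Ahsa1 and Cdc37 were higher in 18 of 18 animals on these brightest probe sets. The dim Cdc37 probe set 1416820_at was at −0.08 ± 0.21, not called (adjusted p = 0.72, limma), and higher in 9 of 18 animals. With averaged probe sets Cdc37 was at 0.25 and not called (adjusted p = 0.0607). Chordc1 was lower by 0.22 in the bound fraction (−0.22 ± 0.04). That direction came with the sleep animals above all, in which its bound mean was 9.88 and its unbound mean 10.52. In waking the bound and unbound means were 10.84 and 10.74, and in sleep deprivation 11.06 and 11.18. All probe sets together had a median of −0.40, and after quantile normalization over all arrays, which removes that shift, Chordc1 stood at −0.08 (adjusted p = 0.0737) and was no longer called. In such bulk fractions fewer cells of a type and less RNA per cell cannot be told apart.

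The order of the 6 groups differed between genes. Hsp90aa1 was lowest in the unbound sleep and unbound waking arrays (means 13.13 in both, not separable), next in unbound sleep deprivation (13.22) and bound sleep (13.25), whose ranges overlapped, and highest in bound waking (13.58) and bound sleep deprivation (13.66), which did not differ beyond their spread. Chordc1 ran from bound sleep (9.88) through unbound sleep (10.52), unbound waking (10.74) and bound waking (10.84) to bound (11.06) and unbound sleep deprivation (11.18). Adjoining values among its last 5 groups overlapped in their ranges.

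Probe sets of 1 gene did not all move alike. Of the 12 tested, 6 were called higher in bound waking and 8 in bound sleep deprivation, beside 5.08% and 8.05% of all probe sets. In either comparison 0 were called lower, beside 4.83% and 6.67% of all. Hsp90aa1 had 5 probe sets. Beside the brightest, 1437497_a_at rose by 0.45 ± 0.09 and 0.56 ± 0.09 in waking and sleep deprivation, and the much dimmer 1441827_x_at by 0.68 ± 0.15 and 0.64 ± 0.15. The suffix of the latter marks probes that may also bind other transcripts. The third bright probe set, 1438902_a_at, was at 0.19 ± 0.11 in waking (adjusted p = 0.31) and rose by 0.36 ± 0.11 in sleep deprivation. The dim 1433251_at was at −0.31 ± 0.14 and −0.09 ± 0.14, not called in either. When all its probe sets were averaged, the Hsp90aa1 change in bound waking was 0.27 and not called (adjusted p = 0.0682).

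Second probe sets of Cdc37 and Fkbp4 were dim, with mean log2 bound signals of 6.05 and 4.97. Cdc37 1416820_at was at −0.46 ± 0.33 in bound waking and −0.25 ± 0.33 in bound sleep deprivation, and Fkbp4 1416363_at at 0.27 ± 0.20 and 0.32 ± 0.20, none of them called. Between the fractions the dim Fkbp4 probe set went the other way from the bright one, lower by 0.77 in the bound fraction (−0.77 ± 0.13). The 2 probe sets below the filter had mean bound signals of 3.80 (Ahsa1 1444500_at) and 3.51 (Fkbp4 1459808_at) and were not tested.

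**Figure D4:**
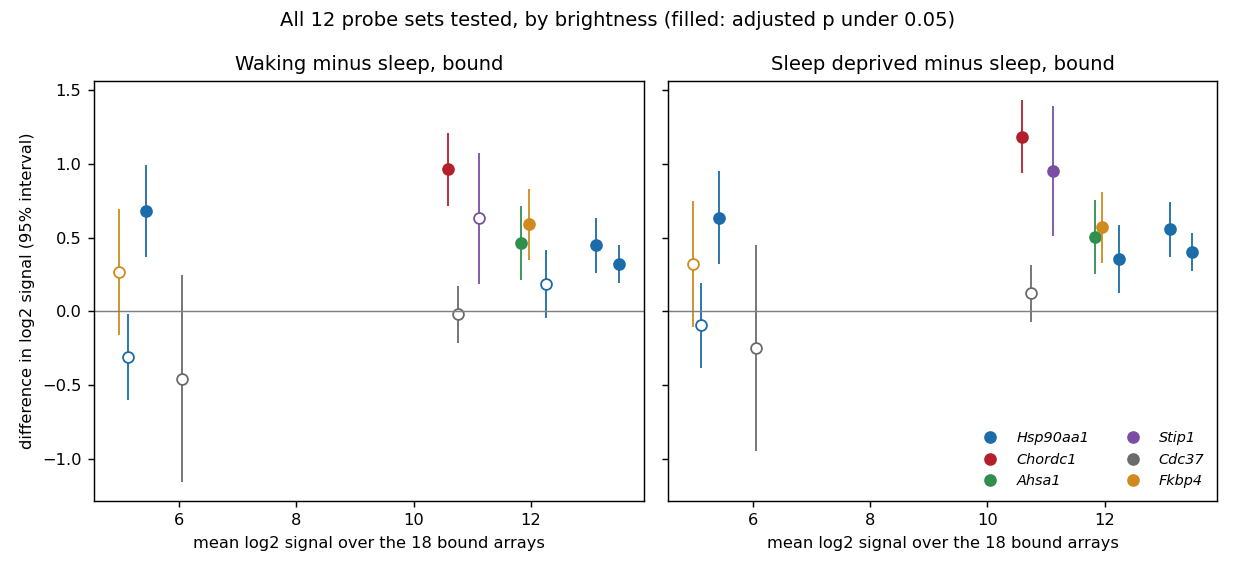
Change from sleep in the bound fraction for all 12 probe sets tested, against their mean log2 signal over the 18 bound arrays, with 95% intervals; filled points had an adjusted p below 0.05. The bright Hsp90aa1 probe sets lie above 0, while the dim Hsp90aa1 probe set 1433251_at lies at −0.31 and −0.09 and both Cdc37 probe sets lie near or below 0.

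The rest of the Hsp90 machinery was less uniform. Of 2 Hsp90 genes of other compartments, Hsp90b1, the form in the endoplasmic reticulum, rose by 0.33 ± 0.10 in bound waking (adjusted p = 0.0375) and by 0.30 ± 0.10 in bound sleep deprivation (adjusted p = 0.0465). It also rose in unbound sleep deprivation, by 0.24 ± 0.07 against sleep and by 0.41 ± 0.07 against waking (adjusted p = 0.00102). After quantile normalization within each fraction the bound waking call and that against unbound waking held, and the bound and unbound sleep deprivation calls against sleep were lost (adjusted p = 0.0968 and 0.0688). Trap1, the mitochondrial form, was not called, with −0.28 ± 0.18 and −0.39 ± 0.18 in the bound wake groups. Among 28 further cochaperones tested, 5 were called higher and 1 lower in bound waking (5.08% and 4.83% of all probe sets), with a median change of 0.03. In bound sleep deprivation 9 were higher and 3 lower (8.05% and 6.67% of all probe sets), with a median of 0.13.

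Fkbp5, which encodes FKBP51, a glucocorticoid-inducible relative of Fkbp4, showed the steepest change among them. It rose by 3.20 ± 0.30 in bound sleep deprivation (adjusted p = 1.428e-06) and was at 0.83 ± 0.30 in bound waking, not called (adjusted p = 0.0902). The difference between the wake groups was itself called, at 2.36 ± 0.30 (adjusted p = 0.000246), which sets it beside Fkbp4, where that difference was −0.02 ± 0.12. In unbound sleep deprivation Fkbp5 rose by 1.03 ± 0.20.

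Ahsa2, the homolog of Ahsa1, rose in both bound wake groups, by 1.67 ± 0.25 in waking (adjusted p = 0.000424) and by 1.84 ± 0.25 in sleep deprivation (adjusted p = 7.835e-05). Cacybp rose by 0.61 ± 0.13 and 0.77 ± 0.13. Cdc37l1, a relative of Cdc37, was not called in bound waking at 0.13 ± 0.05 and rose in bound sleep deprivation by 0.37 ± 0.05 (adjusted p = 0.000144). In the unbound fraction 1 of the 28 was called in waking and 4 in sleep deprivation, all higher, where 1.79% and 4.72% of all probe sets were called higher. Nudcd2 was higher in unbound sleep deprivation than in unbound waking by 0.60 ± 0.13 (adjusted p = 0.00702); its other state comparisons within a fraction were not called. The bound minus unbound difference of Nudcd2 was lower in sleep deprivation than in waking (−0.75 ± 0.20, adjusted p = 0.0396), a call lost after quantile normalization within each fraction (adjusted p = 0.0729).

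Transcripts upstream and downstream of the chaperone were read from 2 further lists. Of 4 listed heat shock transcription factors only Hsf2 and Hsf4 were tested, so nothing is said here of Hsf1 and Hsf5. In limma 0 of the 2 were called in any state comparison. At an unadjusted p below 0.05 there was 1 of 2 in bound sleep deprivation against sleep and 0 of 2 in the other state comparisons. Of 22 client genes tested, 1 was higher in bound waking, near the 5.08% of all probe sets called higher: the receptor kinase gene Erbb3 at 0.44 ± 0.10 (adjusted p = 0.012). Erbb3 was at −0.15 ± 0.10 in bound sleep deprivation, not called, and it was lower there than in waking by 0.59 (−0.59 ± 0.10). The aryl hydrocarbon receptor gene Ahr was the only client called in bound sleep deprivation against sleep, at 1.13 ± 0.31, where 8.05% of all probe sets were called higher. Ahr was lower by 1.13 in the unbound arrays (−1.13 ± 0.31), with a mean log2 bound signal of only 4.90. Ikbkb (0.70 ± 0.19) and Slc12a2 (0.20 ± 0.05) were higher in bound sleep deprivation than in bound waking, the latter not called after quantile normalization within each fraction (adjusted p = 0.071).

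Chaperones that work alongside Hsp90 moved in the same direction in part. Of 11 Hsp70 and Hsp110 genes, 3 were higher in bound waking and 6 in bound sleep deprivation, beside 5.08% and 8.05% of all probe sets. In each comparison 0 were lower, beside 4.83% and 6.67% of all probe sets. The medians were 0.17 and 0.26, beside −0.01 and 0.00 for all probe sets. Hspa1b rose by 3.19 ± 0.75 and 3.99 ± 0.75. Hspa1a was at 2.14 ± 0.68, not called (adjusted p = 0.0531, and 0.0472 after quantile normalization within each fraction), and rose by 3.24 ± 0.68. Hsph1, an Hsp110 that resets Hsp70, rose by 0.82 ± 0.11 and 0.89 ± 0.11, and Hspa4l by 0.62 ± 0.14 and 0.76 ± 0.14. Of the 8 subunits of TRiC, the ring chaperonin for actin and tubulin, 2 were higher in bound waking and 3 in bound sleep deprivation, 0 lower. The shares of all probe sets called higher were again 5.08% and 8.05%. Cct4 rose in both, by 0.30 ± 0.09 and 0.40 ± 0.09, Cct5 in waking only by the test, at 0.34 ± 0.10 against 0.28 ± 0.10, and Cct6a and Cct7 in sleep deprivation, by 0.28 ± 0.06 and 0.22 ± 0.05. After quantile normalization within each fraction the Cct7 call was lost (adjusted p = 0.0763) and Cct6a, at 0.18 in bound waking, gained one there (adjusted p = 0.0401). Cct2 was called in neither, at 0.06 ± 0.07 and 0.14 ± 0.07. It is named for an unbound call, higher in sleep deprivation than in waking by 0.26 (adjusted p = 0.04, limma). That call was lost after quantile normalization within each fraction (adjusted p = 0.293).

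The genes whose pattern over the 36 arrays was nearest to Hsp90aa1 were found among 13929 genes by the root mean square difference of their values, each taken relative to the sleep mean of its fraction. The 5 nearest were Fth1 (0.0841 log2), Ubqln1 (0.0860), Dnaja1 (0.102), Cct6a (0.105) and Fxr1 (0.105), where a gene with no change at all would be at 0.228. Fth1 encodes the ferritin heavy chain, Ubqln1 a ubiquitin-binding shuttle factor and Dnaja1 an Hsp40 partner of Hsp70. In bound waking and sleep deprivation their changes were 0.27 and 0.31 for Fth1, 0.28 and 0.41 for Ubqln1, and 0.34 and 0.46 for Dnaja1. Ahsa1 ranked 352 by this measure and Chordc1 9243, since the measure compares the size of changes as well as their direction.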

How the data were processed

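Expression was measured on whole-genome mouse arrays, 36 in all. The authors deposited 1 table of log2 values, summarised per probe set by RMA according to the submitters' processing notes. The RMA version, and whether the groups were normalized together, are not given in the sources used here. No further normalization was applied. Of 45101 probe sets, 64 array controls were removed, and 28786 were tested whose mean reached the 40th percentile in at least 1 fraction. Symbols came from GEO's platform annotation, and 34945 probe sets name 1 gene.

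For the contrasts between states, a group-means model of the 18 arrays of a fraction was fitted in limma 3.58.1 (R 4.3.3), and its variances were moderated along an intensity trend. Contrasts between fractions used the difference of the 2 arrays of each animal, which share a number in the labels; their deviations from the group means correlated by 0.0069 to 0.0875 (mean 0.0486). The code was tested on simulated data. Tables were read with the data.table package in version 1.17.8. The plots used matplotlib 3.10.9 under Python 3.11.15, with numpy 2.4.6 and pandas 2.3.3. With arrays, precision is limited by their number, 6 per group.

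All member genes are reported. Of each further list, up to 4 genes called in bound and up to 2 called in unbound state contrasts are named, by smallest p. Trap1 and Hsf genes are counted with their lists, and Trap1 was named after its values were seen. Hsf genes are named only to tell which were tested. Members and lists were chosen with earlier results of these data known. Alternatives were quantile normalization, other filters, averaged probe sets, no trend, robust moderation, blocks, and leaving out animals.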

Additional observations from a re-analysis of the deposited data

Results flagged for a closer look

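Stip1 in the bound array of sleep animal 2 was at 11.15, and the nearest of the other 5 sleep arrays was at 10.57. The gap was wide enough to pass Dixon's criterion at the 95% level, in 1 of 36 groups examined, where chance would give about 1 in 20.

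The change from sleep differed between the fractions for 5 gene and state combinations, tested on the per-animal difference between fractions in limma. In waking the bound change exceeded the unbound change by 0.32 for Hsp90aa1, 0.75 for Chordc1 and 0.63 for Fkbp4. In sleep deprivation it did so by 0.31 for Hsp90aa1 and 0.52 for Chordc1. Hsp90aa1 and Chordc1 had the larger bound change in 6 of 6 animals of each wake group, relative to the sleep mean.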

How the results depend on the processing

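The bound counts of called genes, 4 of 6 in waking and 5 of 6 in sleep deprivation, stayed within 1.5 times under every alternative run. The unbound calls were less stable. Against sleep, sleep deprivation had 4 genes called as reported and 2 after quantile normalization over all arrays, after quantile normalization within each fraction, and without the intensity trend. Against waking, the 2 called genes became 0 and 0 under the quantile normalizations, 1 without the trend and 1 without the 3 animals set apart by sex-linked genes. Hsp90aa1 reversed there to −0.0087 over all arrays and −0.0080 within fractions, both not called. For the fraction difference, the 3 genes in waking became 1 without the trend, and the 2 in sleep deprivation became 1 with averaged probe sets and 1 without the trend. Fkbp4 in waking also lost its call under quantile normalization (adjusted p = 0.0877 over all arrays, 0.0672 within fractions). It did so too with averaged probe sets (0.565) and without the 3 animals set apart (0.117). Hsp90aa1 lost its calls with averaged probe sets (0.0624 in waking, 0.0683 in sleep deprivation). In waking Ahsa1 gained a call with averaged probe sets (0.0232) and without the filter (0.0296). The cause was not tested.

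Leaving out 1 animal at a time gave 4 to 5 called genes in bound waking, 5 throughout in bound sleep deprivation, 2 to 4 in unbound sleep deprivation against sleep, 1 to 3 against waking, and 2 to 3 for the fraction difference in either change from sleep. The counts of 2 against sleep came without sleep animals 3 or 6 or sleep deprived animals 7, 9 or 10, and the counts of 1 against waking without waking animals 1, 3 or 5 or sleep deprived animals 7, 9 or 10.

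Sleep and waking animals share numbers, which were not taken as a pairing in the main fit. Arrays of 1 number correlated by 0.0012 to 0.0851 in the bound and 0.0058 to 0.0825 in the unbound fraction. Both arrays of an animal, which were paired, correlated by a similar 0.0069 to 0.0875. These correlations therefore cannot decide whether the shared number marks a pairing. The fit with the replicate block held only the sleep and waking arrays of a fraction. It called 5 genes instead of 4 in bound waking, Stip1 joining with an adjusted p of 0.0127 (limma). Over all probe sets, bound waking calls went from 2853 to 2659 and unbound waking calls from 2287 to 1067. The block and the smaller number of arrays changed together, and their separate parts were not tested. After quantile normalization, an alternative chosen after seeing the data for the further lists, no called list gene changed direction in the state comparisons. Without the animal block no call among the genes changed in the fraction contrasts.

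Over all probe sets, dropping the filter on dim probe sets raised the calls in bound waking from 2853 to 8085, and the 60th percentile filter lowered them to 1318. Without the 3 animals set apart by sex-linked genes they were 1606. Quantile normalization within fractions moved unbound sleep deprivation against waking from 2542 higher and 494 lower to 679 and 710. A planned comparison of Hsp90aa1 with another gene within each array was not run, because that gene matched no probe set.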

Other observations

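Beside Chordc1, 7 genes had a promoter window with a run of at least 4 heat shock units, found after the sequences had been seen: Arpc2, Fam149a, Gm38873, Gm41230, Hspd1, Hspe1 and Kctd18. Probe sets above the filter measured 6 of the 8 genes. The mitochondrial chaperonin genes Hspd1 and Hspe1 lie next to each other and share their promoter. Hspe1 rose by 0.43 ± 0.10 in bound waking (adjusted p = 0.012, limma) and by 0.58 ± 0.10 in bound sleep deprivation (adjusted p = 0.00102), on a probe set whose suffix marks probes shared with other transcripts. Hspd1 rose by 0.42 ± 0.09 in bound sleep deprivation (adjusted p = 0.00425) and was at 0.24 ± 0.09 in bound waking, not called (adjusted p = 0.112). In unbound arrays Hspd1 was lower in waking by 0.16 (−0.16 ± 0.05, adjusted p = 0.0403) and higher in sleep deprivation by 0.17 ± 0.05. Hspe1 rose in unbound sleep deprivation by 0.25 ± 0.06 (adjusted p = 0.0109). The other 3 measured genes, Arpc2, Fam149a and Kctd18, were not called in either bound wake group, and Arpc2 rose in unbound sleep deprivation by 0.24 ± 0.06 (adjusted p = 0.0169).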
